A study of Mus musculus with 21 samples.

Results

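The 10 genes described here mark or drive the earliest steps of blood vessel and blood formation in the mouse embryo: Kdr, Flt1 and Tek, which encode receptors, Etv2, Gata2, Tal1 and Lmo2, which encode transcriptional regulators, and Cd34, Pecam1 and Cdh5, which encode surface proteins. They were taken by gene symbol, and all 10 were found among the 48321 symbols of each count table and among the 14311 genes that passed the filter on low counts. Their counts ranged from 5 to 1845 per sample, in libraries of 6648842 to 15999693 counts. Levels are given as CPM, counts scaled by library size and by TMM factors that correct for differences in library composition. Levels of different genes are compared only after division by the summed exon length of the gene.

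RNA was sequenced from embryoid bodies, floating aggregates of differentiating mouse embryonic stem cells, on day 3 of differentiation. All groups descend from A2loxCre, a stem cell line labelled C57BL/6 in which a coding sequence can be switched on with doxycycline. TWIST1, which belongs to the basic helix-loop-helix family, pairs with itself or with an E-protein, and the design asked how the partner changes what TWIST1 does. There were 7 groups of 3 samples: parental A2loxCre cells treated with doxycycline, Twist1 monomer cells left untreated, and 5 lines given doxycycline for 16 h that carried the Twist1 monomer, the Twist1 homodimer (a construct of joined TWIST1 copies), or Twist1-Tcf3, Twist1-Tcf4 or Twist1-Tcf12 dimers. The last 3 are called heterodimers below. Only the monomer line was sampled with and without induction, so in every other comparison the line, its construct and the construct's level differ together and cannot be told apart. The uninduced monomer samples were also the only ones without doxycycline. Every comparison with them, that of monomer induction included, therefore differs in the drug as well. The labels do not say that samples of a group came from separate cultures, so p-values measure the spread between these samples, which may be technical.

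In the gastrulating embryo, mesoderm cells that carry KDR, the main VEGF receptor, give rise to endothelium and to the first blood cells. ETV2 is an ETS factor required for this step, and TAL1, LMO2 and GATA2 act together in multiprotein complexes on blood and endothelial genes. TAL1, like TWIST1, is a basic helix-loop-helix protein that binds E-boxes, short DNA elements of the form CANNTG, together with E-proteins. PECAM1, CDH5 and TEK are characteristic of endothelium that has formed, while PECAM1 is also present on undifferentiated embryonic stem cells.

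The 250 bases before the RefSeq transcription start are shown for Cd34, Kdr and Gata2, which among the genes with such a window had the largest rises in samples labelled TCF3 or TCF12 dimer, and for Tek, the other gene with an E-box there. All are on build GRCm38.p6, printed 5′ to 3′ on the gene's strand, with capitals marking every CANNTG. The stretches lie at chr1:194938571-194938820 on the plus strand for Cd34, chr5:75978456-75978705 on the minus strand for Kdr, chr6:88193641-88193890 on the plus strand for Gata2 (the first of 2 windows) and chr4:94739039-94739288 on the plus strand for Tek.
Cd34: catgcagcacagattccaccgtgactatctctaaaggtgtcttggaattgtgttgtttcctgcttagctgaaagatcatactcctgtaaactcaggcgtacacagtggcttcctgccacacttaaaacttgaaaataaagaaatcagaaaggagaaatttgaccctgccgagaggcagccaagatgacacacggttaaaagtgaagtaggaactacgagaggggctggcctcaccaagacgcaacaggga
Kdr: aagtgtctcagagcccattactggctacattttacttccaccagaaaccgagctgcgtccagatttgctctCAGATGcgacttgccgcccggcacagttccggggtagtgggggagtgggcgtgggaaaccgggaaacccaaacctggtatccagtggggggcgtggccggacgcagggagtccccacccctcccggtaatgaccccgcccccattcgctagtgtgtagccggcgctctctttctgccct
Gata2: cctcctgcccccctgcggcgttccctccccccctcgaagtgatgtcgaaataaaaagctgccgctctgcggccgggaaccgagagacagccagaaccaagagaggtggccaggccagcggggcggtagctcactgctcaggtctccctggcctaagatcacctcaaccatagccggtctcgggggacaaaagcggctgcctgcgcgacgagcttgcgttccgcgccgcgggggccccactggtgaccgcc
Tek: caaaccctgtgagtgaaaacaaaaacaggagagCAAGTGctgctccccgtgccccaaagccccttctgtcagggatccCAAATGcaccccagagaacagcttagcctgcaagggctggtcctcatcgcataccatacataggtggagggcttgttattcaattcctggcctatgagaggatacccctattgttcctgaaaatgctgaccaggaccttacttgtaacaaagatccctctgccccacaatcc

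RefSeq windows matched 7 of the 10 genes, with 9 windows in all. CANNTG, which reads alike on both strands in this general form, was present in 2 of the 9 windows, those of Kdr and Tek, against 66.2% of all 32851 windows of the same length. The Kdr element is CAGATG, 179 bases before the start, a form found on either strand in 14.4% of all windows. The Tek window holds CAAGTG and CAAATG. No CANNTG was found in the Cd34 window or in either Gata2 window, nor in those of Etv2, Tal1 and Flt1, and this says only that these letters are absent from these stretches. In GENCODE M21 on GRCm38, Kdr spans chr5:75932827-75978458 on the minus strand, Cd34 spans chr1:194938819-194961279 on the plus strand, and 148 bases of the 7290 exonic bases of Cd34 overlap Gm16897, a gene on the minus strand. The strand setting of the counting is not given in the sources used here, so reads in those 148 bases cannot be assigned to a strand.

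Induction was checked with Twist1 itself. Its level was 7.37 to 8.94 CPM in parental samples and 4.39 to 5.64 CPM in the uninduced monomer samples, against 585 to 647 CPM in the induced monomer samples, 166 to 199 CPM in the homodimer samples and 36.1 to 56.6 CPM in the 9 heterodimer samples. Tcf4 was raised in the TCF4 dimer samples (log2 fold change 2.80 against parental, adjusted p = 2.2e-10 by edgeR). Tcf3 did not pass in the samples labelled TCF3 dimer (-0.12, adjusted p = 0.24). Tcf12 was 62.9 to 68.9 CPM in parental samples, 91.3 to 120 CPM in those labelled TCF3 dimer, 85.0 to 93.7 CPM with the TCF4 dimer, and 53.2, 118 and 108 CPM in samples 1 to 3 labelled TCF12 dimer. It passed in those labelled TCF3 dimer (0.66, adjusted p = 0.012) and not in those labelled TCF12 dimer (0.50, adjusted p = 0.055). Without sample 1 of the latter it passed in all 3 heterodimer groups (0.65 for TCF3, 0.45 for TCF4 and 0.77 for TCF12, adjusted p = 4.1e-08, 4.7e-05 and 1.5e-08). In that fit Tcf3 passed as lower in those labelled TCF3 dimer (-0.13, adjusted p = 0.043 by edgeR). Tcf4 passed as higher in those labelled TCF12 dimer (0.26, adjusted p = 0.025). Tcf3 was 150.8 to 159.3 CPM in those labelled TCF3 dimer and 165.5 to 189.9 CPM in those labelled TCF12 dimer. A rise of the named partner thus sets the TCF4 dimer apart but does not tell the other 2 groups from each other. These 2 groups are called the TCF3-labelled and TCF12-labelled samples. TCF12-labelled sample 1 stood apart from samples 2 and 3, and results that rest on it are given with and without it.

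Hemangiogenic genes were counted that differed from the parental line at an adjusted p under 0.05 (edgeR quasi-likelihood test, adjusted over all 14311 genes by the Benjamini-Hochberg method). The number was 8 in the TCF3-labelled, 7 in the TCF12-labelled and 3 in the TCF4 dimer samples, against at most 2 in the monomer and homodimer lines. The TCF4 dimer margin rests on 1 gene that fell, Flt1, a call lost in 6 of 21 leave-one-out fits. As many genes rose there as in the induced monomer samples. In fits of only the groups compared, the TCF12-labelled and the induced monomer samples each had 4, and the TCF4 dimer samples had 6. The order of these groups thus depends on the fit, and shares of all genes were not taken in those fits. In bulk samples such as these, fewer cells of a type and less RNA per cell cannot be told apart. All 6 comparisons share the 3 parental samples. The 10 genes and the other lists were chosen with earlier results of these data known. Shares of all genes beside their counts are therefore a description and not a test. In the TCF3-labelled samples 8 of the 10 genes rose and 0 fell, where 28.3% of all tested genes passed in either direction and 16.3% were higher. In the TCF12-labelled samples 5 rose and 2 fell, where 27% of all tested genes passed and 15.5% were higher. In the TCF4 dimer samples 2 rose and 1 fell, where 12.9% passed and 7.18% were higher.
The count in the homodimer samples was 1 higher and 1 lower, where 8.84% of all genes passed and 4.81% were higher. In the induced monomer samples 2 rose, where 20% of all genes passed, a share equal to the background. In the uninduced monomer samples 1 rose, where 19.9% passed. The median log2 fold change of the 10 genes was 1.17 in the TCF3-labelled samples, 0.56 in the TCF4 dimer samples and 0.55 in the TCF12-labelled samples, beside 0.01, 0.0045 and 0.02 over all tested genes. In the homodimer and induced monomer lines it was 0.09 and 0.04. Without TCF12-labelled sample 1, which entered the shared estimate of the spread, 4 of the 10 passed in the induced monomer samples and 5 in the TCF4 dimer samples, where 35.2% and 28.1% of all genes then passed. In its own group 7 still passed, with 6 higher and 1 lower, since Cdh5 was gained and Flt1 lost, where 30.3% of all genes passed. The counts of the 10 genes in the TCF3-labelled, homodimer and uninduced monomer samples were the same, while the shares of all genes were then 46.5%, 20.4% and 36.8%.

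**Figure D1:**
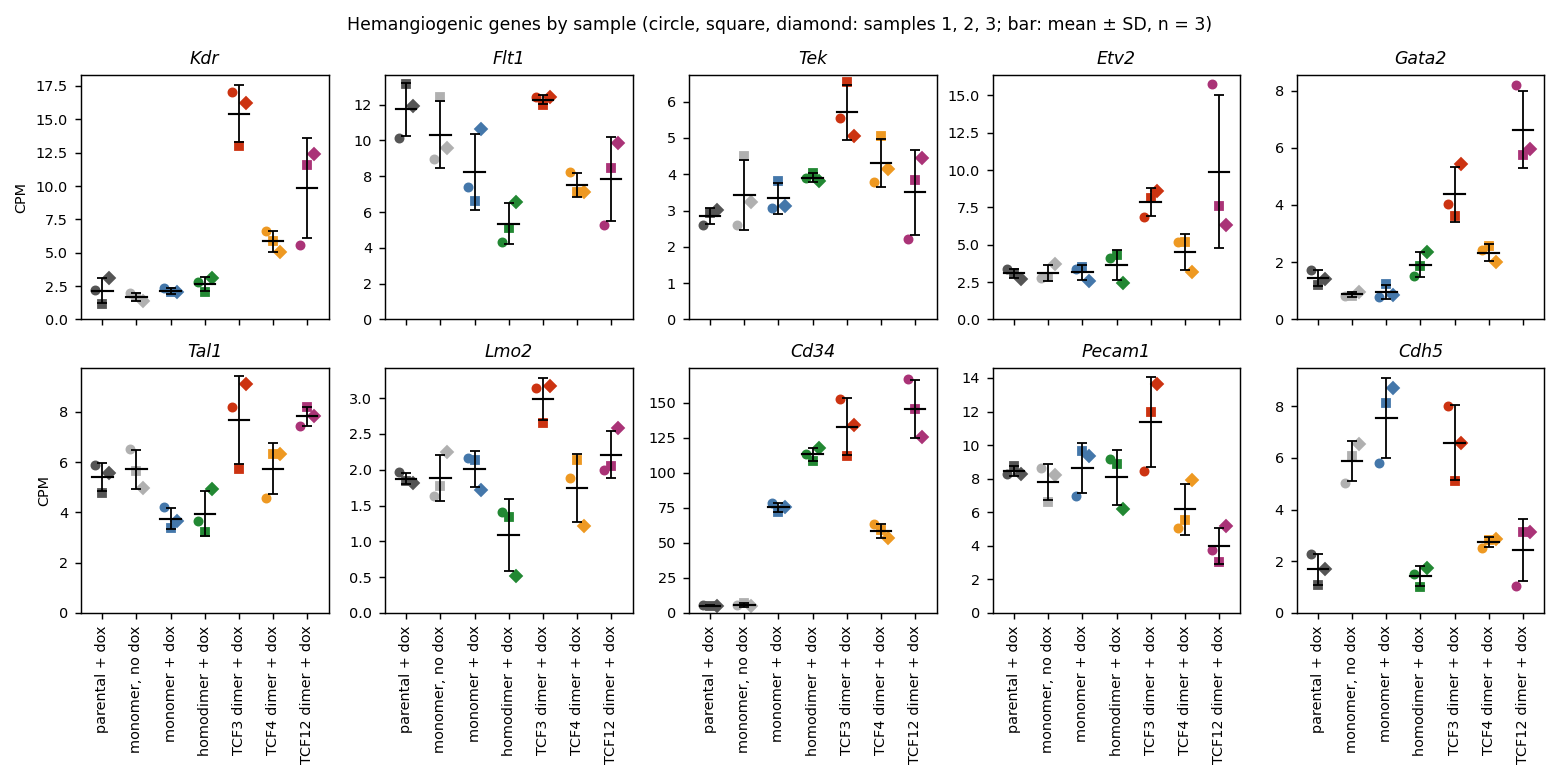
Level of each of the 10 genes in CPM (linear axis from 0) in the 7 groups, with circle, square and diamond for samples 1, 2 and 3, and a bar for the mean ± SD (n = 3). Cd34 is at 7.32 CPM or less in the 6 samples without an induced construct and at 53.3 CPM or more in the other 15, whereas Kdr reaches 5.05 CPM or more only in the 9 heterodimer samples.

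Cd34, which encodes a sialomucin on blood progenitors and young endothelium, had the largest rise of the 10 genes against the parental line in all 5 induced lines. It stood at 5.45, 5.20 and 4.74 CPM in parental samples 1 to 3 and at 5.37, 7.32 and 4.88 CPM in the uninduced monomer samples. Induction of the monomer took it to 78.6, 72.3 and 75.3 CPM. It was 113, 108 and 118 CPM in the homodimer samples, 152, 112 and 134 CPM in the TCF3-labelled samples, 63.3, 59.5 and 53.3 CPM in the TCF4 dimer samples, and 167, 145 and 126 CPM in the TCF12-labelled samples. No sample with an induced construct overlapped any of the 6 samples without one.
Within the monomer line, the comparison in which the line is held constant, Cd34 rose 12.8-fold on induction (log2 fold change 3.68 ± 0.15, SE, adjusted p = 1.3e-11 by edgeR). It was the single hemangiogenic gene to pass there, where 2% of all tested genes passed. By p-value it ranked 2 of 14311 genes in that comparison. The uninduced monomer line itself did not pass against the parental line (0.20 ± 0.18, adjusted p = 0.53).
Against the parental line the Cd34 rise was 14.7-fold for the monomer, 22.0-fold for the homodimer, 25.9-fold for the TCF3-labelled samples, 11.4-fold for the TCF4 dimer and 28.4-fold for the TCF12-labelled samples (log2 fold changes 3.88, 4.46, 4.69, 3.51 and 4.83, each ± 0.15, SE, adjusted p from 1.9e-11 to 1.3e-13). The induced monomer samples had the highest Twist1 level and the second lowest Cd34 level of the 5 induced lines. The part of the construct's level in the Cd34 differences was not tested. Per kilobase of exon, Cd34 went from 0.704 ± 0.0492 CPM (SD, n = 3) in parental samples to 18.2 ± 2.77 in the TCF3-labelled samples and 20.01 ± 2.83 in the TCF12-labelled samples. On that scale it was the highest of the 10 genes in both groups, whereas in parental samples Etv2 was the highest at 2.94 ± 0.316. Among the induced lines the homodimer exceeded the monomer (0.58 ± 0.12, adjusted p = 0.0017), and the TCF4 dimer samples were lower than the monomer (-0.36 ± 0.12, adjusted p = 0.031), a call lost in 5 of the 21 fits that each left out 1 sample, all of them samples of these 2 lines. That call was also lost with library size only.

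**Figure D2:**
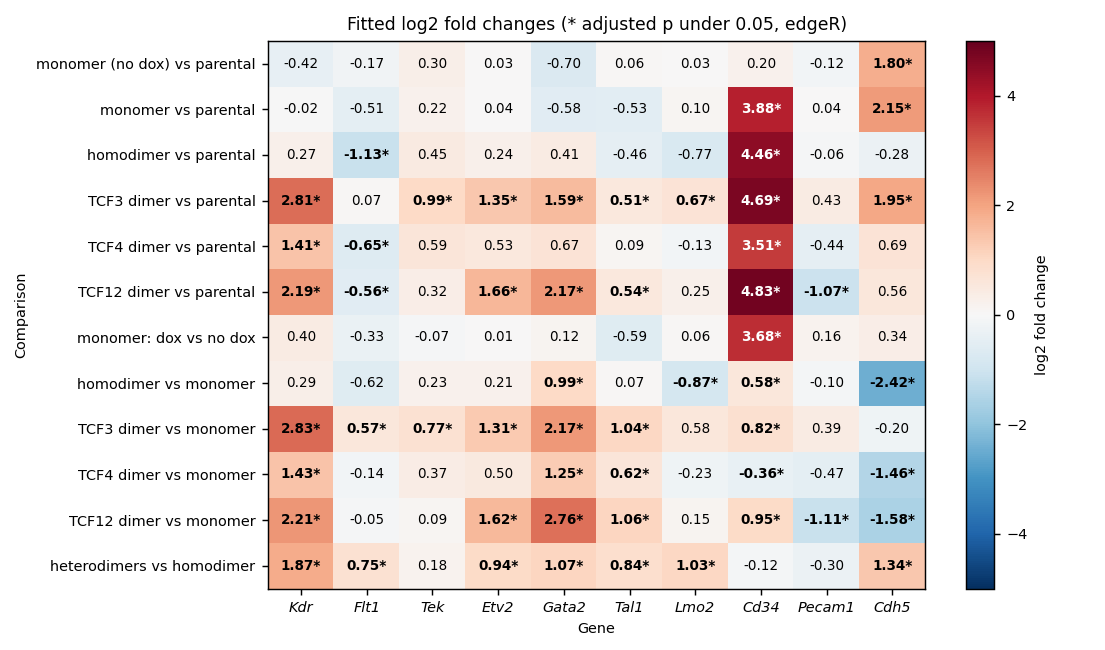
Fitted log2 fold changes (edgeR, 21 samples in 1 fit) of the 10 genes in 12 comparisons, with red for higher, blue for lower and an asterisk at an adjusted p under 0.05. Cd34 is the single gene with an asterisk in the comparison of the monomer line with and without doxycycline, and Kdr has asterisks wherever a heterodimer is compared with a line that lacks one.

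Of the receptors, Kdr was higher in every heterodimer sample than in any other sample. It measured 2.18, 1.19 and 3.13 CPM in parental samples, 1.95, 1.67 and 1.37 CPM in the uninduced and 2.39, 2.02 and 2.04 CPM in the induced monomer samples, and 2.81, 2.07 and 3.09 CPM in the homodimer samples. The heterodimer groups lay above all of these, at 17.0, 13.0 and 16.2 CPM in the TCF3-labelled samples, 6.61, 5.90 and 5.05 CPM in the TCF4 dimer samples and 5.56, 11.6 and 12.4 CPM in the TCF12-labelled samples. Neither monomer induction (0.40 ± 0.40, adjusted p = 0.95) nor the homodimer against the parental line (0.27 ± 0.35, adjusted p = 0.80) passed.
Averaged over the 3 groups, the heterodimers exceeded the homodimer in Kdr by 1.87 ± 0.25 on the log2 scale (adjusted p = 2.9e-05 by edgeR), and all 9 samples were above all 3. Against the induced monomer samples the log2 fold changes of Kdr were 2.83 ± 0.29 for the TCF3-labelled samples, 1.43 ± 0.31 for the TCF4 dimer and 2.21 ± 0.29 for the TCF12-labelled samples (adjusted p = 8.0e-07, 0.0016 and 1.1e-05). Within the heterodimers, Kdr was higher in the TCF3-labelled samples than in the TCF4 dimer samples (1.40 ± 0.23, adjusted p = 0.00028). For the TCF12-labelled samples against the TCF4 dimer samples the difference did not pass (0.78 ± 0.24, adjusted p = 0.075), but did without TCF12-labelled sample 1, where Kdr was 5.56 CPM against 11.6 and 12.4 (1.05, adjusted p = 0.00015).

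Flt1, whose product binds VEGF strongly but signals weakly and holds ligand away from KDR, did not follow Kdr. It was 10.1, 13.1 and 11.9 CPM in parental samples, 8.95, 12.4 and 9.57 CPM in the uninduced and 7.40, 6.64 and 10.6 CPM in the induced monomer samples. In the homodimer samples it was 4.32, 5.12 and 6.58 CPM, below every parental sample, and it fell (-1.13 ± 0.22, adjusted p = 0.0015 by edgeR). The TCF3-labelled samples stayed at 12.4, 12 and 12.4 CPM, within the parental range (0.07 ± 0.19, adjusted p = 0.85).
The TCF4 dimer line, at 8.26, 7.10 and 7.12 CPM, was lower than the parental line (-0.65 ± 0.20, adjusted p = 0.039), a call lost in 6 of 21 leave-one-out fits. The TCF12-labelled samples, at 5.25, 8.45 and 9.85 CPM, passed by a margin that 14 of 21 leave-one-out fits removed (-0.56 ± 0.20, adjusted p = 0.047, and -0.36 with adjusted p = 0.093 without sample 1). Both calls were also lost with library size only, and that of the TCF12-labelled samples in a fit of only the groups compared. Per kilobase of exon, Flt1 was above Kdr in parental samples (0.868 ± 0.111 against 0.240 ± 0.107 CPM, SD, n = 3) and below it in the TCF3-labelled samples (0.910 ± 0.0179 against 1.71 ± 0.237).

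Tek, the angiopoietin receptor TIE2, differed less. It measured 2.62, 2.93 and 3.03 CPM in parental samples and 5.54, 6.53 and 5.04 CPM in the TCF3-labelled samples, 2 ranges that do not overlap (0.99 ± 0.22, adjusted p = 0.0017 by edgeR). Samples of the homodimer (3.81 to 4.04 CPM) and TCF4 dimer lines (3.78 to 5.05 CPM) also lay above all parental samples, without passing (0.45 ± 0.23, adjusted p = 0.30, and 0.59 ± 0.22, adjusted p = 0.094). Without TCF12-labelled sample 1 the TCF4 dimer difference passed (adjusted p = 0.021). In the TCF12-labelled samples Tek was 2.20, 3.86 and 4.44 CPM, a range that includes the parental samples.

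Among the transcriptional regulators, Gata2 and Etv2 rose in the TCF3- and TCF12-labelled samples. Gata2, a zinc finger factor needed by blood stem and progenitor cells, was 1.74, 1.19 and 1.41 CPM in parental samples, 0.814 to 0.977 CPM in the uninduced and 0.797 to 1.24 CPM in the induced monomer samples. It was 4.05, 3.62 and 5.45 CPM in the TCF3-labelled samples (1.59 ± 0.23, adjusted p = 3.3e-05 by edgeR) and 8.19, 5.74 and 5.97 CPM in the TCF12-labelled samples (2.17 ± 0.22, adjusted p = 6.5e-07). Neither group overlapped any of the other 15 samples, and the 2 groups did not overlap each other.
The TCF4 dimer line, at 2.44, 2.57 and 2.01 CPM, lay above the parental samples and did not pass against them (0.67 ± 0.25, adjusted p = 0.089), although it did without TCF12-labelled sample 1 (adjusted p = 0.047). Against the induced monomer samples, where Gata2 was lowest among induced lines, all 4 dimer groups passed: the homodimer by 0.99 ± 0.29, the TCF3-labelled samples by 2.17 ± 0.25, the TCF4 dimer by 1.25 ± 0.27 and the TCF12-labelled samples by 2.76 ± 0.24 (adjusted p = 0.022, 4.9e-06, 0.0018 and 6.6e-08). The homodimer call was lost in 3 of 21 leave-one-out fits and by DESeq2. Gata2 and Cd34 were the 2 genes of the 10 that passed as higher in the homodimer than in the induced monomer samples.

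Etv2 was 3.38, 3.14 and 2.72 CPM in parental samples and between 2.47 and 4.31 CPM in the monomer and homodimer samples. The TCF3-labelled samples had 6.86, 8.12 and 8.62 CPM (1.35 ± 0.31, adjusted p = 0.0026 by edgeR) and the TCF12-labelled samples 15.7, 7.63 and 6.30 CPM (1.66 ± 0.31, adjusted p = 0.00055). The TCF4 dimer line, at 5.19, 5.22 and 3.16 CPM, overlapped the parental line (0.53 ± 0.33, adjusted p = 0.36). In a fit of only these samples and the parental ones the TCF12-labelled group no longer passed (adjusted p = 0.058). TCF12-labelled sample 1 was 2.26 times the mean of samples 2 and 3, and against the TCF4 dimer samples the Etv2 difference of 1.12 ± 0.28 (adjusted p = 0.034) became 0.65 (adjusted p = 0.051) without it.

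Tal1 and Lmo2, whose products sit in one DNA-binding complex, differed little from their parental levels. Tal1 was 5.89, 4.77 and 5.55 CPM in parental samples, 8.18, 5.74 and 9.11 CPM in the TCF3-labelled samples and 7.45, 8.20 and 7.83 CPM in the TCF12-labelled samples. Both differences passed narrowly (0.51 ± 0.18, adjusted p = 0.044, and 0.54 ± 0.18, adjusted p = 0.038, edgeR), and were lost in 11 and 5 of 21 leave-one-out fits. The lowest mean Tal1 level was in the induced monomer samples, at 4.21, 3.38 and 3.65 CPM, below all uninduced samples (4.98 to 6.51 CPM), a difference that did not pass (-0.59 ± 0.21, adjusted p = 0.24).
Against the induced monomer samples Tal1 was higher by 1.04 ± 0.19 in the TCF3-labelled samples and by 1.06 ± 0.20 in the TCF12-labelled samples (adjusted p = 0.00067 and 0.00032), and these 2 calls held in all leave-one-out fits. Lmo2 was 1.96, 1.84 and 1.82 CPM in parental samples and 3.14, 2.65 and 3.17 CPM in the TCF3-labelled samples, which did not overlap (0.67 ± 0.24, adjusted p = 0.045, lost in 14 of 21 leave-one-out fits, by DESeq2 at adjusted p = 0.083, with library size only and with no low-count filter). In the homodimer samples it was 1.40, 1.35 and 0.514 CPM, the last resting on 5 counts (-0.77 ± 0.30, adjusted p = 0.13). Against the induced monomer samples that group passed (-0.87 ± 0.29, adjusted p = 0.047), a call lost in 15 of 21 leave-one-out fits, by DESeq2 (adjusted p = 0.080), with library size only and with no low-count filter.

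The endothelial adhesion genes differed from group to group in other ways than Kdr: neither passed in all 3 heterodimer groups. Pecam1 was 8.28, 8.78 and 8.28 CPM in parental samples and 3.78, 3.04 and 5.17 CPM in the TCF12-labelled samples, where it fell (-1.07 ± 0.24, adjusted p = 0.0027 by edgeR). In the TCF3-labelled samples it was 8.43, 12 and 13.7 CPM and did not pass (0.43 ± 0.21, adjusted p = 0.15). Between these 2 groups the difference was 1.50 ± 0.23 (adjusted p = 0.00014), with no overlap.
The summed level of 9 pluripotency markers was 1610 to 1646 CPM in parental samples, 1207 to 1245 CPM in the TCF4 dimer samples, 1150 and 1164 CPM in TCF12-labelled samples 2 and 3 and 2058 CPM in sample 1, 1418 to 1578 CPM in the TCF3-labelled samples, 1597 to 1712 CPM in the homodimer samples, 2018 to 2318 CPM in the uninduced and 1960 to 2248 CPM in the induced monomer samples, with none of the 9 at 0. Of the 9, 7 fell and 0 rose both in the TCF12-labelled samples and in the TCF4 dimer samples, where Pecam1 did not pass (-0.44 ± 0.22, adjusted p = 0.24). Of all tested genes 27% and 12.9% passed in these 2 groups. The part of the pluripotency markers in the Pecam1 result was not tested.

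Cdh5, which encodes VE-cadherin of endothelial junctions, was raised in the monomer line with and without induction. It was 2.29, 1.08 and 1.72 CPM in parental samples, 5.04, 6.06 and 6.54 CPM in the uninduced monomer samples and 5.80, 8.10 and 8.71 CPM in the induced ones. The uninduced monomer line exceeded the parental line without induction of the construct (1.80 ± 0.32, adjusted p = 0.00044 by edgeR), and the difference on induction did not pass (0.34 ± 0.26, adjusted p = 0.87). The TCF3-labelled samples, at 8.02, 5.12 and 6.59 CPM, were also higher than the parental line (1.95 ± 0.31, adjusted p = 7.9e-05).
The homodimer line had 1.51, 0.987 and 1.75 CPM of Cdh5, the TCF4 dimer samples 2.52, 2.82 and 2.86 CPM, and the TCF12-labelled samples 1.05, 3.12 and 3.15 CPM. None of these 3 groups passed against the parental line (adjusted p = 0.83, 0.23 and 0.23), but without sample 1 the TCF12-labelled samples did (0.88, adjusted p = 0.020). All 3 were below the induced monomer samples, with differences of -2.42 ± 0.32, -1.46 ± 0.27 and -1.58 ± 0.28 on the log2 scale (adjusted p = 1.8e-05, 0.00043 and 0.00023).
Markers of primitive endoderm, an early extraembryonic lineage, differed between the same groups. The summed level of 11 such markers was 352 to 392 CPM in parental samples, 1370 to 1725 CPM in the uninduced and 1353 to 1504 CPM in the induced monomer samples, 673 to 944 CPM in the TCF3-labelled samples, 170 to 177 CPM in the TCF4 dimer samples, 167 to 200 CPM in the TCF12-labelled samples and 266 CPM or less in the homodimer samples, with none at 0 in any group. Of the 10 that were tested, 8 rose and 0 fell in each monomer group against the parental line, 8 rose and 2 fell in the TCF3-labelled samples, and 7, 9 and 8 fell in the homodimer, TCF4 dimer and TCF12-labelled samples, with 1 rising in the last. Of all tested genes 19.9% and 20% passed in the uninduced and induced monomer samples and 28.3% in the TCF3-labelled samples. In the homodimer, TCF4 dimer and TCF12-labelled samples 8.84%, 12.9% and 27% passed. Between the uninduced and the induced monomer samples 0 of the 10 markers passed, where 2% of all tested genes did. The part of these markers in the Cdh5 result was not tested. Kdr did not share that order, since the 6 monomer samples with the highest sums had Kdr at 1.37 to 2.39 CPM.

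**Figure D3:**
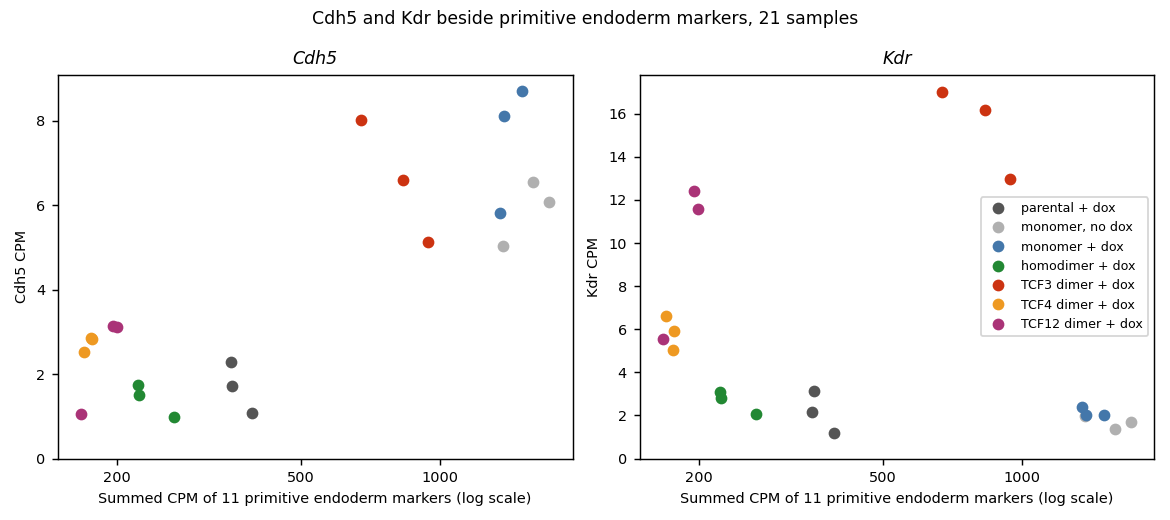
Cdh5 (left) and Kdr (right) in CPM against the summed CPM of 11 primitive endoderm markers (log axis), 1 point per sample, coloured by group, 21 samples. Cdh5 is above 5 CPM only in the 9 samples whose marker sum is 673 CPM or more, while Kdr is high in samples with both high and low sums.

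With the homodimer as reference, 7 of the 10 genes were higher in the mean of the heterodimers and 0 were lower, where 14% of all tested genes passed (edgeR). These were Kdr (1.87), Cdh5 (1.34), Gata2 (1.07), Lmo2 (1.03), Etv2 (0.94), Tal1 (0.84) and Flt1 (0.75). Kdr was the only one of them in which all 9 heterodimer samples were above all 3 homodimer samples. Cd34 did not pass (-0.12 ± 0.10, adjusted p = 0.52), nor did Tek and Pecam1 (0.18 and -0.30, adjusted p = 0.60 and 0.34). Leaving out homodimer sample 3 ended the Etv2 and Lmo2 calls, and leaving out homodimer sample 1 or sample 2 ended that of Flt1.

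Against the induced monomer samples, counts were 2 higher and 2 lower for the homodimer (18.5% of all tested genes passed), 7 higher and 0 lower for the TCF3-labelled samples (22.1%), 3 higher and 2 lower for the TCF4 dimer (27.4%) and 5 higher and 2 lower for the TCF12-labelled samples (33.5%). The homodimer count fell to 2 without induced monomer sample 1 or 3, and the TCF4 dimer count to 3 without induced monomer sample 2 or 3 or TCF4 dimer sample 2. These comparisons share the induced monomer samples. Against the same line uninduced, 4 genes passed for the homodimer (22.8%), 5 for the TCF3-labelled samples (28.9%), 4 for the TCF4 dimer (32.3%) and 6 for the TCF12-labelled samples (37%). Without TCF12-labelled sample 1 the count for the TCF3-labelled samples was 8, where 47.6% of all genes passed.
Kdr, Cd34, Gata2 and Etv2 passed as higher against the parental and both monomer groups in the TCF3- and TCF12-labelled samples. Kdr was higher by 3.23 ± 0.30 and 2.61 ± 0.31 against the uninduced monomer samples (adjusted p = 1.6e-07 and 2.3e-06). All 11 Kdr results that passed did so under every alternative that was run.

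The 3 heterodimer groups differed from each other in level. The TCF3-labelled samples had 8 of the 10 genes higher than in the TCF4 dimer samples and 0 lower (19.7% of all tested genes passed), from Kdr (1.40), Cdh5 (1.26) and Cd34 (1.18) to Flt1 (0.71). Etv2 was the weakest of the 8 calls (0.82 ± 0.28, adjusted p = 0.046 by edgeR, lost in 17 of 21 leave-one-out fits). Tal1 and Tek did not pass (adjusted p = 0.10 and 0.16). Without TCF12-labelled sample 1 all 10 genes were higher, where 40.4% of all genes passed, and without TCF4 dimer sample 3 the count was 5.
In the TCF12-labelled samples 3 genes were higher than in the TCF4 dimer samples (3.24% of all tested genes passed): Cd34 (1.31 ± 0.12, adjusted p = 1.2e-05), Gata2 (1.50 ± 0.19, adjusted p = 0.00048) and Etv2. By p-value Cd34 and Gata2 ranked 2 and 9 of 14311 genes there. In an edgeR fit of these 6 samples alone 0 of the 10 passed (Cd34 at adjusted p = 0.22), with 5 at an unadjusted p under 0.05, while DESeq2 on all samples called 3.
Between the TCF3-labelled samples and the TCF12-labelled samples 5 genes passed (18.8% of all tested genes). Pecam1 (1.50), Cdh5 (1.39), Tek (0.68) and Flt1 (0.63) were higher in the former and Gata2 was lower (-0.59 ± 0.18, adjusted p = 0.032). The Gata2 call was lost by DESeq2, with library size only and with no low-count filter. Without TCF12-labelled sample 1 the count was 3, since Tek (0.45, adjusted p = 0.073) and Gata2 (-0.42, adjusted p = 0.095) no longer passed, while 25% of all genes did. Without TCF3-labelled sample 1 or 2 it was 3 or 2. In an edgeR fit of these 6 samples alone 0 passed, with 5 at an unadjusted p under 0.05, while DESeq2 on all samples called 4. Cd34 did not pass (-0.13 ± 0.12, adjusted p = 0.43), and neither did Kdr (0.63 ± 0.23, adjusted p = 0.058), whose 2 groups did not overlap.

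TCF12-labelled sample 1 differed from samples 2 and 3 by gene. The ratio of its CPM to their mean was 0.335 for Cdh5, 0.463 for Kdr, 0.531 for Tek and 0.574 for Flt1, between 0.860 and 0.929 for Lmo2, Pecam1 and Tal1, and 1.23 for Cd34, 1.40 for Gata2 and 2.26 for Etv2. Flt1 and Kdr have the longest exon sums of the 10 genes (13504 and 9030 bases) and Etv2 the shortest (1048 bases), but the ratios did not follow length throughout: Cdh5, with the lowest, has 4203 bases, and Cd34 and Gata2, both above 1, have 7290 and 5398. Over 8953 genes averaging 10 CPM or more, which are not independent replicates, the difference of sample 1 ran against exon length with a Spearman rho of -0.674. The part of transcript length in the values of the 10 genes was not tested, and the biological coefficient of variation of the whole fit was 0.120 with this sample and 0.0539 without it.

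**Figure D4:**
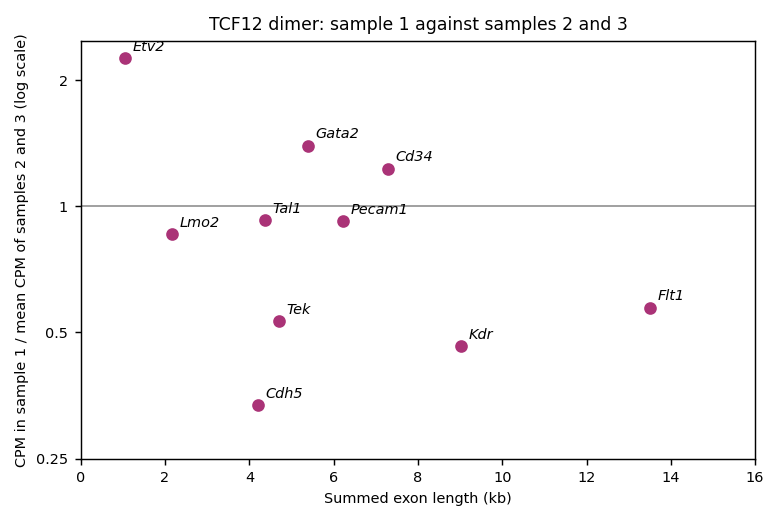
Ratio of CPM in TCF12-labelled sample 1 to the mean of samples 2 and 3 (log axis, line at 1) against summed exon length in kb, 1 point per gene for the 10 genes. Etv2, the shortest at 1048 bases, is at 2.26, and Kdr and Flt1, the longest, are at 0.463 and 0.574, while Cdh5 at 4203 bases has the lowest ratio, 0.335, and Cd34 at 7290 bases and Gata2 at 5398 bases are at 1.23 and 1.40.

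The order of the groups differed between genes. For Cd34 it ran from the parental line and the uninduced monomer samples, which overlapped, through the TCF4 dimer, the induced monomer and the homodimer, which did not overlap their neighbours below, to the TCF3- and TCF12-labelled samples, which overlapped the group below them. For Kdr the uninduced monomer samples had the lowest mean but lay within the parental range, which also overlapped the induced monomer and homodimer groups, the TCF4 dimer samples stood clear above them, the TCF12-labelled samples overlapped these, and the TCF3-labelled samples stood clear at the top. Over the 21 samples, which fall into 7 groups and share the lines' backgrounds, Pearson's r on log2(CPM + 0.5) was 0.85 between Kdr and Gata2 (0.92 over 20 samples), 0.88 between Etv2 and Gata2, 0.64 between Kdr and Cd34, and 0.02 between Cd34 and Cdh5. These values are descriptions of how the levels lie together across the groups.
Among tested genes averaging 1 CPM or more, the 5 whose levels lay closest to Kdr over the 21 samples were Hhip, Tmtc4, Spred1, Lox and Gmip (r of 0.95 each). Closest to Cd34 were Ppp3ca, Vasn, Smarcd2, Plcd1 and Epha3 (0.97 to 0.98), and closest to Gata2 were Fam181b, Vim, Uap1, Maged1 and Adssl1 (0.94 to 0.96). Closest to Cdh5 were Fndc3b, Ypel2, Dock5, Fkbp15 and Glul (0.93 to 0.95). For Etv2 they were Selm, Crabp1, Col9a2, Cebpd and D1Ertd622e (0.92 to 0.94, and 0.89 to 0.91 over the 20 samples without TCF12-labelled sample 1).

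Of 11 other genes of the VEGF and angiopoietin pathway, 8 rose and 0 fell in the TCF3-labelled samples against the parental line, 2 rose in the TCF4 dimer samples, 4 rose and 1 fell in the TCF12-labelled samples, and 1 rose in the homodimer samples. In each monomer group 2 rose and 1 fell. Of all tested genes, 28.3%, 12.9%, 27% and 8.84% passed in the TCF3-labelled, TCF4 dimer, TCF12-labelled and homodimer samples. In the uninduced and induced monomer samples 19.9% and 20% passed. The TCF4 dimer, homodimer and monomer counts of this list lie near these shares. Vegfa, the principal ligand of KDR, rose in the TCF3-labelled samples (0.82 ± 0.16, adjusted p = 0.00049), as Kdr did, but also in both monomer groups, where Kdr did not pass. It was 6.29 to 7.41 CPM in parental samples, 17.1 to 23.8 CPM in the uninduced monomer samples (1.57 ± 0.15, adjusted p = 4.5e-07 by edgeR) and 3.15 to 4.52 CPM in the TCF12-labelled samples, where it fell (-0.86 ± 0.18, adjusted p = 0.0015).
Angpt1, the agonist ligand of TEK, passed in all 3 heterodimer groups, with 1, 2 and 1 counts in the parental samples and 30, 18 and 27 counts in the TCF3-labelled samples, 8, 10 and 8 in the TCF4 dimer samples and 11, 16 and 17 in the TCF12-labelled samples. Its homodimer counts were 2, 0 and 0. Angpt2, the other angiopoietin gene of the list, was the 1 gene that rose in the homodimer samples (2.10 ± 0.51, adjusted p = 0.011 by edgeR). It also rose in the TCF3-labelled samples (2.50 ± 0.47, adjusted p = 0.00044) and the TCF4 dimer samples (2.23 ± 0.48, adjusted p = 0.0032), from a parental mean of 0.243 CPM. Tie1, an orphan receptor related to TEK, rose in the TCF3-labelled samples (2.45 ± 0.48, adjusted p = 0.00068), from 0.344 ± 0.318 to 1.97 ± 0.636 CPM (SD, n = 3).

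Of 23 other endothelial genes 18 could be tested. In the TCF3-labelled samples 11 rose and 0 fell, in the TCF12-labelled samples 8 rose and 3 fell, in the TCF4 dimer samples 4 rose and 2 fell, and in the homodimer samples 1 rose and 2 fell. Without induction 5 of these genes rose in the monomer line, with it 7, and 0 fell. Of all tested genes, 28.3%, 27%, 12.9% and 8.84% passed in the TCF3-labelled, TCF12-labelled, TCF4 dimer and homodimer samples. In the uninduced and induced monomer samples 19.9% and 20% passed. The ETS factor gene Fli1 was at 1 to 4 counts per parental sample and 0.108 to 0.404 CPM there, against 3.80 to 7.27 CPM in the TCF3-labelled samples, 2.40 to 3.70 CPM in the TCF4 dimer samples and 4.28 to 5.99 CPM in the TCF12-labelled samples. Its fitted log2 fold changes were 4.29, 3.64 and 4.33 (adjusted p = 3.4e-06, 0.00011 and 4.2e-06 by edgeR), sizes that depend on these few parental counts. In the induced monomer samples Fli1 was 0 to 0.569 CPM, and in the homodimer samples 0.540 to 0.823 CPM.
Ets1, another ETS factor gene, rose on monomer induction (0.71 ± 0.15, adjusted p = 0.012), as did Elk3 (0.62 ± 0.15, adjusted p = 0.036). Ets1 was 16.4 ± 2.40 CPM in parental samples, 39.4 ± 2.03 in the homodimer samples and 87.9 ± 13.7 in the TCF3-labelled samples (SD, n = 3). Cldn5, a tight junction gene of endothelium, went from 0.908 to 1.84 CPM in parental samples to 7.19 to 8.70 CPM in the TCF3-labelled samples (2.49 ± 0.30, adjusted p = 3.9e-06).
Sox7 and Sox17, SOX factors of endothelium that are also primitive endoderm markers and were counted in both lists, rose in both monomer groups and the TCF3-labelled samples and fell in the homodimer, TCF4 dimer and TCF12-labelled samples. Sox7 was 8.20 ± 1.46 CPM in parental samples, 32.1 ± 4.25 in the uninduced monomer samples and 2.37 ± 0.556 in the TCF4 dimer samples (SD, n = 3). Emcn was listed at 0 in the parental, monomer and TCF4 dimer groups, and Vwf, a marker of formed endothelium, was at 0 to 12 counts in every sample.

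**Figure D5:**
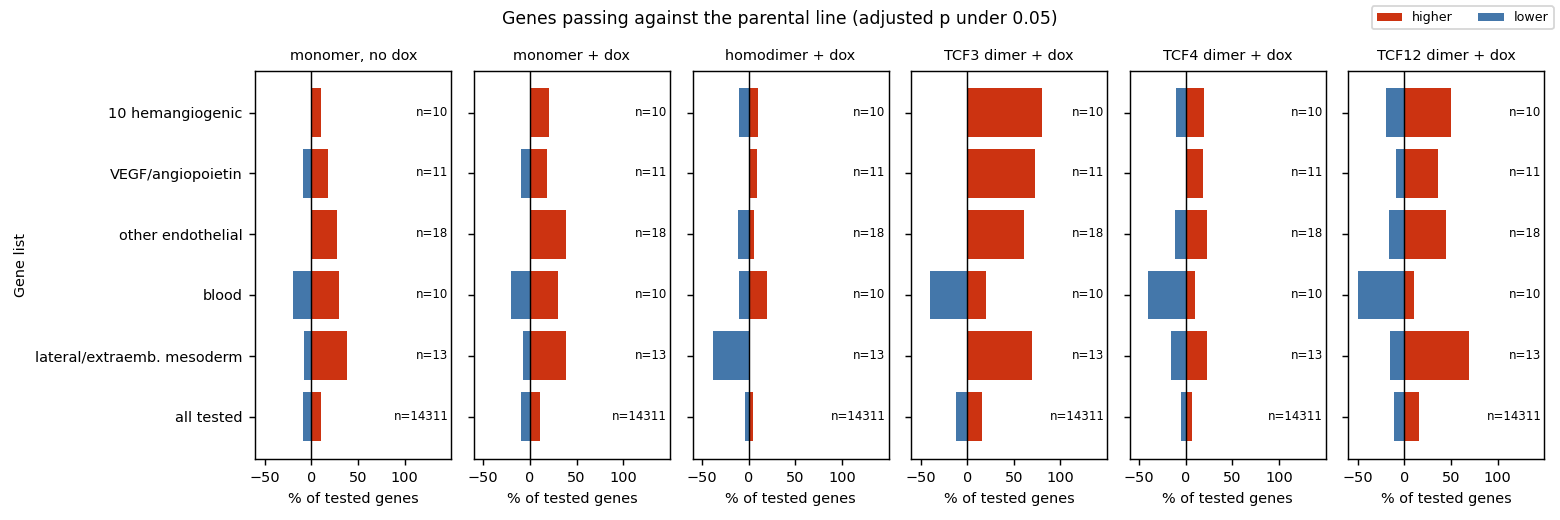
Share of tested genes that were higher (red, to the right) or lower (blue, to the left) than in parental samples at an adjusted p under 0.05, in percent, for the 10 genes, 4 other gene lists and all tested genes, with the number tested as n. The red bar of the 10 genes is longest in the TCF3 dimer panel, with 8 of 10, and blood genes have more blue than red in all 3 heterodimer panels.

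Among blood genes more fell than rose in the heterodimer groups. Of 19 listed genes 10 could be tested, and in the TCF3-labelled samples 2 rose and 4 fell, in the TCF4 dimer samples 1 rose and 4 fell, and in the TCF12-labelled samples 1 rose and 5 fell. Among all 14311 tested genes more rose than fell in the same groups (2338 and 1719, 1027 and 812, 2213 and 1651 in that order). In each monomer group 3 blood genes rose and 2 fell, and in the homodimer samples 2 rose and 1 fell, where 20% or less of all tested genes passed. The gene that rose in all 3 was Cbfa2t3, whose product is a corepressor found with TAL1 and GATA factors: it was 0.404 to 0.981 CPM in parental samples, 9.44 to 14.9 CPM in the TCF3-labelled samples, 7.47 to 8.88 CPM in the TCF4 dimer samples and 8.72 to 10.8 CPM in the TCF12-labelled samples (log2 fold changes 3.93, 3.38 and 3.64). It also rose in the homodimer samples, to 4.67 to 6.91 CPM (2.88 ± 0.32, adjusted p = 3.3e-06 by edgeR).
Runx1, needed for blood cells to emerge from endothelium, was 3.44 ± 0.4995 CPM in parental samples, 10.9 ± 1.35 in the uninduced monomer samples, 1.02 ± 0.147 in the TCF4 dimer samples and 1.12 ± 0.193 in the TCF12-labelled samples (SD, n = 3), and all 3 differences from the parental line passed (1.66, -1.76 and -1.61). It also rose in the TCF3-labelled samples (0.81 ± 0.16, adjusted p = 0.00068). Kit, the stem cell factor receptor, fell in the TCF12-labelled samples (-1.53 ± 0.18, adjusted p = 4.9e-06) and in the TCF4 dimer samples (-0.73 ± 0.17, adjusted p = 0.0069). The embryonic globin gene Hbb-bh1 had 0 to 4 counts per sample and Hba-x and Hbb-y were listed at 0 in the parental, uninduced monomer, homodimer and TCF3-labelled groups.

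Of 13 tested genes of lateral and extraembryonic mesoderm, 9 rose and 0 fell in the TCF3-labelled samples, 9 rose and 2 fell in the TCF12-labelled samples, 3 rose and 2 fell in the TCF4 dimer samples, and 0 rose and 5 fell in the homodimer samples. In each monomer group 5 rose and 1 fell. Of all tested genes, 28.3%, 27%, 12.9% and 8.84% passed in the TCF3-labelled, TCF12-labelled, TCF4 dimer and homodimer samples, and 19.9% and 20% in the uninduced and induced monomer samples. Pdgfra, which rose in both monomer groups (2.23 in each), is also a primitive endoderm marker and was counted in both lists. Its mean was 9.38 CPM in parental, 43.9 in uninduced and 44.2 in induced monomer samples, and also 42.9 CPM in the TCF3-labelled samples. Hand1, a basic helix-loop-helix factor gene of this mesoderm, was 0.202 to 0.436 CPM in parental samples, 2.56 to 7.19 CPM in the TCF3-labelled samples, 2.19 to 3.54 CPM in the TCF4 dimer samples and 5.09 to 16.8 CPM in the TCF12-labelled samples (3.62, 2.86 and 4.84, adjusted p = 0.00017, 0.0058 and 2.7e-06 by edgeR). Isl1, a LIM homeodomain factor gene of heart progenitors, rose in the TCF3-labelled samples (3.60 ± 0.44) and the TCF12-labelled samples (3.30 ± 0.45). Hand2 rose in the TCF3-labelled, TCF4 dimer and TCF12-labelled samples (4.28, 3.73 and 4.87), from a parental mean of 0.0698 CPM. Genes that fell were Tbx3 (-1.27) and Msx2 (-0.98) in the TCF4 dimer samples, and Postn (-1.94) and Tbx3 (-0.64) in the TCF12-labelled samples. Msx2 (-2.14), Tbx20 (-1.22) and Msx1 (-0.999) were among those that fell in the homodimer samples. Neither Hand1 nor Isl1 passed in the comparison of the monomer line with and without doxycycline. There 0 of the 13 passed, beside 2% of all tested genes, so the 0 lies near the background.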

How the data were processed

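RNA-seq was run on 21 embryoid body samples in 7 groups of 3, grouped by the genotype and treatment labels. The authors deposited raw read counts for each gene symbol, with a separate table for each sample. The submitters' processing notes name FastQC, TopHat2 and HTSeq, and builds mm10 and GRCm38, without versions. In 18 of the tables, 25 symbols each had become calendar dates, so tables were joined by row position. None of the 10 genes is affected.

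All 21 samples entered 1 fit with 1 mean per group (edgeR 4.0.16, limma 3.58.1, R 4.3.3), with TMM factors, the default expression filter (count 10, total count 15), quasi-likelihood F-tests and Benjamini-Hochberg adjustment over 14311 genes, with 19 comparisons in all. Standard errors were derived from the F statistic. The procedure was tested on simulated data. A total of 3 counts equals 0.183 to 0.488 CPM, depending on the sample. Exon lengths came from GENCODE M21 and promoter windows from RefSeq (GRCm38.p6).

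The 10 genes and all lists were chosen with earlier results of these data known. Of each other list, the text names up to 3 genes per direction and comparison ranked by log2 fold change, from passing genes whose samples do not overlap and whose higher mean is at least 1 CPM, and a few named after their values were seen (Emcn, Vwf, Hbb-bh1, Hba-x and Hbb-y). Twist1 and the partner genes check the labels. The fit of the partner genes without TCF12-labelled sample 1 was added after seeing the data. For likeness, the 5 genes of highest r are named. Alternatives were leaving out each sample, a replicate block, only the groups compared, no low-count filter or one of 1 CPM in 3 samples, scaling by RLE or by library size, and DESeq2 1.42.0.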

Additional observations from a re-analysis of the deposited data

How the results depend on the processing

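None of the 89 results of single hemangiogenic genes that passed changed direction under the alternatives run. Direction was not checked for results that did not pass. Of the 89, 60 passed under every alternative run and 29 were lost in at least 1. Counts of the 10 genes passing moved by more than 1.5 times in a fit of only the groups compared, to 4 for the induced monomer, 6 for the TCF4 dimer and 4 for the TCF12-labelled samples against the parental line, to 0 for the TCF12-labelled samples against the TCF4 dimer, to 0 between the TCF3- and TCF12-labelled samples, and to 8 for the TCF3-labelled samples against the uninduced monomer line, where scaling by library size alone also gave 8. Such a fit uses fewer samples, and in both comparisons with 0 by edgeR 5 genes had an unadjusted p under 0.05, while DESeq2 on all samples called 3 and 4.

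Leaving out 1 sample gave, against the parental line, 2 to 4 for the induced monomer, 2 to 2 for the homodimer, 6 to 8, 2 to 5 and 5 to 7 for the TCF3-labelled samples, the TCF4 dimer and the TCF12-labelled samples, and 1 to 1 for the uninduced monomer. It gave 1 to 1 for monomer induction, and against the induced monomer 2 to 5, 5 to 7, 3 to 5 and 7 to 7 for the homodimer and the 3 heterodimers in the same order. The range was 5 to 7 for the heterodimers against the homodimer, 5 to 10 and 2 to 4 for the TCF3- and TCF12-labelled samples against the TCF4 dimer, 2 to 6 between those 2 groups, and 4 to 6, 4 to 8, 4 to 5 and 6 to 7 against the uninduced monomer. Replicate numbers are shared by all groups. Deviations from group means correlated at a mean of 0.0341 over 63 same-numbered pairs, with a lowest value of -0.475, and of -0.0153 over 126 differently numbered pairs. With 3 samples per group, these averages do not settle whether samples of the same number shared a batch or culture. Blocking on the number gave counts of 2, 2, 7, 4 and 7 for the 5 induced lines against the parental line, and no blocked count in the 19 comparisons moved by more than 1.5 times. Both Lmo2 calls, for the TCF3-labelled samples against the parental line and the homodimer against the induced monomer, did not pass with the block (edgeR, adjusted p = 0.054 and 0.059). Kdr and Gata2 in the parental and monomer lines rest on few counts, and folds against them are imprecise. No setting tests whether samples of a group came from separate cultures.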

Other observations

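Markers of other cell types were measured in the same fit against the parental line (edgeR, adjusted p under 0.05). Of all tested genes 28.3% passed in the samples labelled TCF3 dimer, 12.9% with the TCF4 dimer and 27% in those labelled TCF12 dimer. Of 4 tested neural markers 2 rose and 1 fell in the samples labelled TCF3 dimer, 2 rose and 0 fell with the TCF4 dimer, and 3 rose and 1 fell in those labelled TCF12 dimer. Of 5 smooth muscle and mesenchyme markers 1, 1 and 3 rose and 2, 1 and 1 fell in the same order. Of 4 tested trophoblast markers 0 rose and 1, 2 and 2 fell, and Tpbpa and Prl3d1 were listed at 0 in all 7 groups.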
